A study of Mus musculus with 12 samples.

Results

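The Smad genes encode the proteins that carry signals of the TGF-beta superfamily from the cell surface to the nucleus. The mouse has 8 of them, and their rows were taken by gene symbol from the 12 count tables of the study and summed over transcripts. All 8, Smad1 to Smad7 and Smad9, were found among 24452 symbols, and all 8 passed the filter on low counts that left 14739 symbols for testing. Male C57BL/6 mice received intraperitoneal ethanol or saline on postnatal day 7, and somatosensory cortex collected 8 hours later was used for stranded total RNA-Seq. WT and p53 KO mice, the latter with the Trp53tm1Tyj deletion in every cell, were offspring of heterozygous parents, and the comparison asks which responses to ethanol depend on p53. Each of the 4 groups (WT saline, WT ethanol, p53 KO saline and p53 KO ethanol) had 3 libraries.

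Ligands of the family bind paired serine/threonine kinase receptors, which phosphorylate the receptor-regulated Smads. Smad2 and Smad3 serve TGF-beta and activin receptors, while Smad1, Smad5 and Smad9 serve bone morphogenetic protein (BMP) receptors. Both kinds join the common partner Smad4 and enter the nucleus to regulate genes such as the Id family. Smad6 and Smad7 are inhibitory Smads that bind the receptors or compete for Smad4, and their transcription is itself raised by the pathway. In developing cortex, BMP signals are known for their part in glial fate, and TGF-beta signals for neuronal migration and survival.

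Summed counts ranged from 719735 in p53 KO ethanol replicate 1 and 1953154 in WT saline replicate 1 to between 5060577 and 17066392 in the other 10 libraries. The 2 shallow libraries also have titles opening with another letter than the rest, and the values they moved most are given without them as well. The deletion removes an upstream portion of Trp53, and reads from its 3′ end remain, so the total level of Trp53 (3.67 to 26.2 CPM, normalized counts scaled to a common library size, in WT and 11.1 to 28.7 CPM in p53 KO libraries) checks no label. The share of Trp53 counts assigned to transcript NM_001127233 did separate most libraries, at 7.01 to 23.1% in WT and 48.3 to 70.6% in 5 of 6 p53 KO libraries. It was 7.01% in p53 KO ethanol replicate 1, where Trp53 had 14 counts. The same 7.01% was assigned in WT saline replicates 1 and 2 and WT ethanol replicate 3, on 51, 20 and 78 counts. A share repeated on such different counts cannot be read as measured and checks no label in these libraries.

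The promoter sequences of 3 Smad genes are shown because their genes rose in a comparison (Smad1 and Smad9) or carried a Smad site (Smad6). They come from RefSeq on build GRCm38.p6 and run 5′ to 3′ from 250 bases before to 50 bases after the annotated start. Windows of 5 of the Smad genes were searched (Smad1, Smad3, Smad5, Smad6 and Smad9), and those of Smad2, Smad4 and Smad7 were left out of the search. Among the windows of the 5 genes searched, the palindromic Smad-binding element GTCTAGAC occurred only in that of Smad6, beginning 4 bases before the start. Of 32851 mouse promoter windows, 70 (0.213%) held it. The BMP-Smad motif GGCGCC was found in the windows of Smad9 and, in 2 overlapping windows, Smad5, against 11.9% of all windows. None of the searched Smad windows held a p53 consensus decamer, which 8.36% of all windows did. Both strands were searched, both spelled motifs read the same on either strand, and a match describes letters only. Capitals mark the matched motif below, the Smad1 window holding none.
Smad1, chr8:79399379-79399678, minus strand: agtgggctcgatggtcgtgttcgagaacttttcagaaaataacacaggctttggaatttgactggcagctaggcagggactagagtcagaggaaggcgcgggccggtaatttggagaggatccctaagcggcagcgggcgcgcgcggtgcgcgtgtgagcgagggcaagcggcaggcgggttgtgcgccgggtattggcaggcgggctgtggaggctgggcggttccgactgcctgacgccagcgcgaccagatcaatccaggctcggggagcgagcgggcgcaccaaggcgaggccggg
Smad6, chr9:64022010-64022309, minus strand: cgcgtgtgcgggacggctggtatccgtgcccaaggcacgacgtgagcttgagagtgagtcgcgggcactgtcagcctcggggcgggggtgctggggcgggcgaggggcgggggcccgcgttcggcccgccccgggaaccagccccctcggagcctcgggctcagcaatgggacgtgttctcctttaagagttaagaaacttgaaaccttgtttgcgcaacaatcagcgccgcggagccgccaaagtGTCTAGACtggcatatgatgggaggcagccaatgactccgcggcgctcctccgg
Smad9, chr3:54755332-54755631, plus strand: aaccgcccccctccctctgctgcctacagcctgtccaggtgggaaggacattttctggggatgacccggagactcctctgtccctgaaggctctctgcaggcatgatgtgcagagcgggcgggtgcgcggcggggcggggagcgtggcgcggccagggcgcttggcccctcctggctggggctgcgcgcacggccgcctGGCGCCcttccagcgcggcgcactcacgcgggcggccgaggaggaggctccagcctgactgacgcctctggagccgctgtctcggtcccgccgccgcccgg

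The levels of the Smad genes in this tissue spanned a wide range. Per length, on the authors' quantile-normalized RPKM scale (read counts scaled by transcript length and library size), Smad1 averaged 9.21 ± 3.74 (SD, n = 12 libraries), Smad4 7.62 ± 2.0, Smad5 6.33 ± 2.26 and Smad2 5.50 ± 1.70. Smad3 was lower at 2.43 ± 0.731, followed by Smad7 at 1.12 ± 0.294, Smad9 at 0.767 ± 0.211 and Smad6 at 0.325 ± 0.435. The BMP-branch Smad1 thus stood near the middle of the tested genes (percentile 57.9) and the inhibitory Smad6 near the bottom (percentile 3.82). Of neighbours in this order, only Smad2 (3.29 to 7.76) and Smad3 (1.37 to 3.28) had ranges over the libraries that did not overlap. Smad3 also lay above every Smad9 value (0.553 to 1.16), but the lowest Smad5 value (3.24) fell just under the highest of Smad3. The ranges of Smad1, Smad4, Smad5 and Smad2 all overlapped with one another, as did those of Smad7, Smad9 and Smad6.

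Counts behind these levels were small for the rarer members. Smad6 had 1 to 42 estimated counts a library, Smad9 2 to 161, Smad7 3 to 119 and Smad3 5 to 376, whereas Smad2 had 23 to 1477 and Smad5 29 to 1277. Smad1 ranged from 8 to 979 counts and Smad4 from 12 to 657, with the lowest in p53 KO ethanol replicate 1 for both. On genome build mm10 the files place Smad1 at chr8:79338398-79399468, Smad3 at chr9:63646767-63757994, Smad5 at chr13:56703010-56742378, Smad6 at chr9:63953076-64022059 and Smad9 at chr3:54755582-54801269. Smad2 (chr18:76241701-76311747), Smad4 (chr18:73639013-73703741) and Smad7 (chr18:75367365-75395934) lie on chromosome 18.

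**Figure D1:**
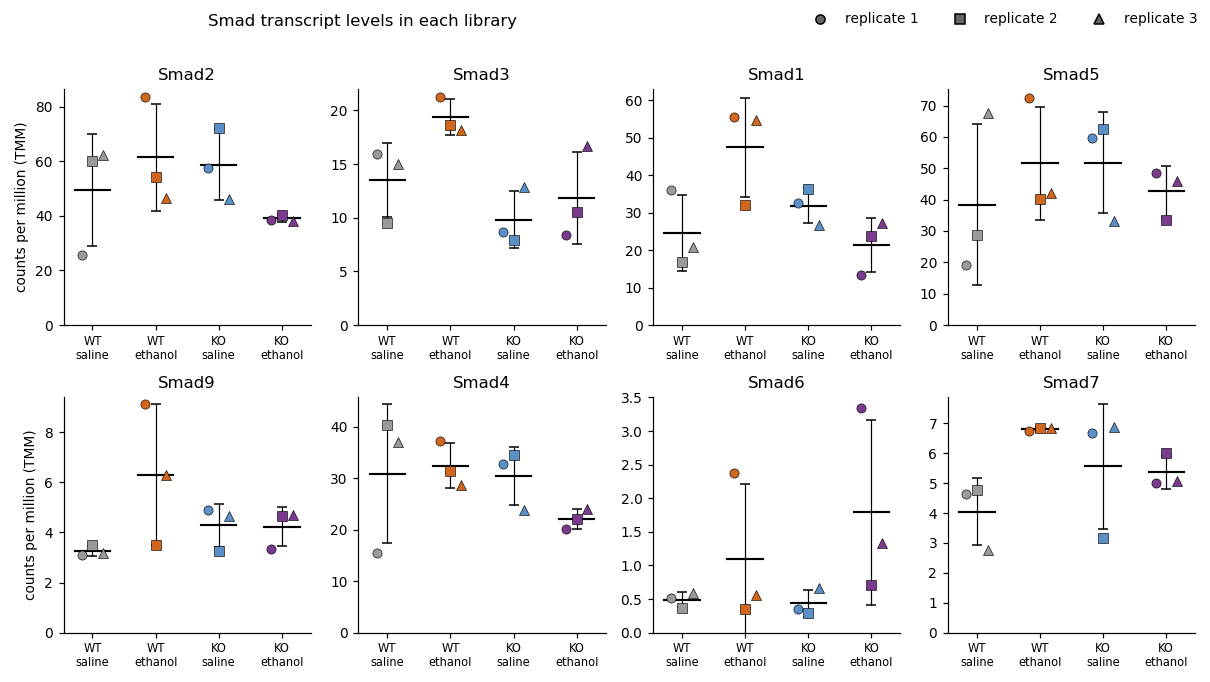
Normalized counts (CPM) of each Smad gene (y axes, linear, each starting at 0) in the 12 libraries, as points by group, with the mean and SD of 3 libraries per group. Smad1 averages 47.4 CPM in WT ethanol and 24.6 CPM in WT saline, and the lower error bar of Smad6 in WT ethanol is cut at 0.

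Smad1 and Smad9, 2 of the 8 Smad genes, were called higher after ethanol in WT mice. Calls used the false discovery level of 0.30 that the study used. Of all tested genes 22.5% passed that level in this comparison, and 12.1% were higher. Smad1 stood at 36.0, 16.9 and 20.9 CPM in the WT saline libraries and at 55.4, 32.1 and 54.6 CPM in the WT ethanol libraries. WT ethanol replicates 1 and 3 lay above every saline library and replicate 2 lay below WT saline replicate 1, so the groups overlapped. The log2 fold change of Smad1 was 0.97 ± 0.39 (SE; edgeR quasi-likelihood test, adjusted p = 0.230). Smad9, the least abundant BMP-branch Smad, had 3.09, 3.49 and 3.19 CPM under saline and 9.12, 3.51 and 6.30 CPM after ethanol. Its groups did not overlap, although WT ethanol replicate 2 was only just above the highest saline library, and the log2 fold change was 0.96 ± 0.48 (adjusted p = 0.299). The other BMP-branch gene, Smad5, varied more within groups than between them (19.0, 28.7 and 67.6 CPM under saline against 72.3, 40.1 and 42.2 CPM after ethanol; log2 fold change 0.41 ± 0.45, adjusted p = 0.643).

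Among the other Smad genes no change passed the test in WT mice. Smad3 was at 15.9, 9.55 and 15.0 CPM under saline and at 21.3, 18.6 and 18.2 CPM after ethanol, without overlap (log2 fold change 0.53 ± 0.39, adjusted p = 0.470). The inhibitory Smad7 showed 4.63, 4.78 and 2.75 CPM under saline and a narrow 6.74, 6.85 and 6.86 CPM after ethanol, again without overlap (0.78 ± 0.47, adjusted p = 0.373). For Smad3, Smad7 and Smad9 the exact permutation test over 3 against 3 libraries gave a two-sided p of 0.1, the smallest it can give. Smad2 had 25.7, 60.1 and 62.3 CPM under saline and 83.6, 54.5 and 46.4 CPM after ethanol (0.31 ± 0.38, adjusted p = 0.675), and the low saline value was that of the shallow library. The common partner Smad4 had 15.4, 40.2 and 37.0 CPM against 37.2, 31.4 and 28.7 CPM (0.057 ± 0.37, adjusted p = 0.948). Without the shallow WT saline replicate 1, Smad2 was at -0.051, Smad4 at -0.30 and Smad5 at 0.032. Smad6 had 0.514, 0.367 and 0.594 CPM under saline and 2.38, 0.351 and 0.556 CPM after ethanol, so its log2 fold change of 1.19 ± 0.85 (adjusted p = 0.449) came from WT ethanol replicate 1 and was -0.13 without that library.

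In all, 2 of 8 Smad genes passed the level of 0.30 in WT mice, where 22.5% of all tested genes passed it and 12.1% were higher. At an adjusted p of 0.05, 0 of 8 Smad genes passed (0.0746% of all genes), and 1 had an unadjusted p under 0.05 (18.3% of all genes). Non-overlap with ethanol higher was seen for 3 of 8, against 11.3% of all genes, and for 0 of 8 on the authors' RPKM scale. All 8 log2 fold changes were above 0, with a median of 0.65 against 0.059 over all genes, but 4 of 8 were above 0 after an offset took out each library's dependence on length and GC content (the length and GC trend). The call of Smad1 was kept in 15 of 24 alternative fits, all with the same sign. Among the fits that left out 1 library it was lost without WT saline replicate 2 (0.73, adjusted p = 0.499) or 3 (0.86, 0.373), WT ethanol replicate 1 (0.83, 0.525), 2 (1.13, 0.301) or 3 (0.85, 0.333), or p53 KO saline replicate 1 (0.93, 0.306). The call of Smad9 was kept in 6 of 24 fits, of which only those without WT saline replicate 1 (0.87, adjusted p = 0.259) or p53 KO ethanol replicate 1 (0.96, 0.235) left out 1 library, and the estimate was 0.31 (adjusted p = 0.744) with the length and GC trend removed. Without both shallow libraries Smad1 was at 1.25 (adjusted p = 0.0221) and Smad9 at 0.85 (adjusted p = 0.221). In that fit 8295 of 14967 genes passed an adjusted p of 0.30 and 3220 passed 0.05.

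**Figure D2:**
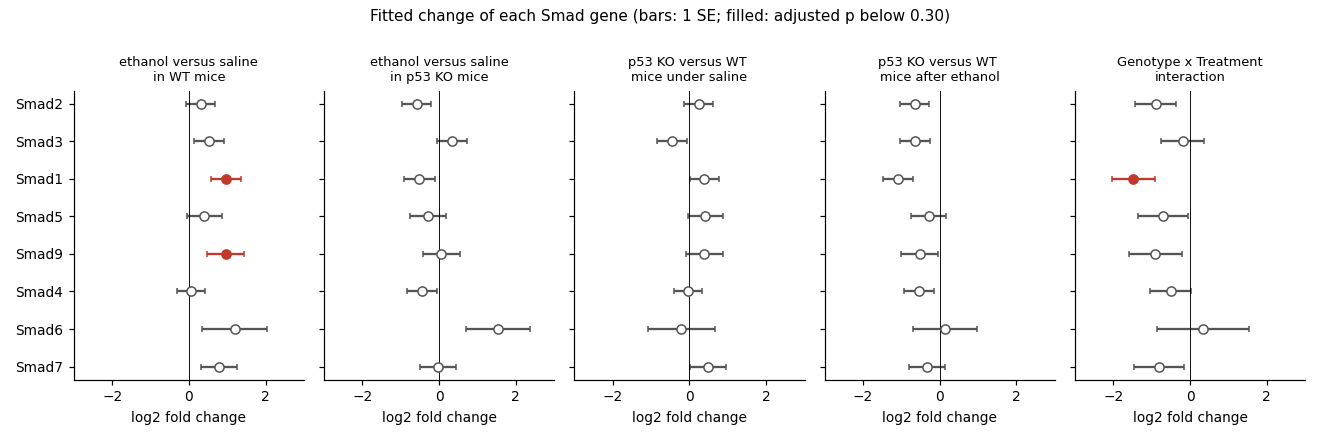
Log2 fold change with its SE for the 8 Smad genes (x axis) in the 5 comparisons of the edgeR fit, with filled points for adjusted p under 0.30. The filled points are Smad1 (0.97) and Smad9 (0.96) for ethanol in WT mice and Smad1 (-1.48) for the interaction.

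In p53 KO mice no Smad gene passed the test after ethanol by edgeR. Smad1 was at 32.5, 36.2 and 26.8 CPM in the p53 KO saline libraries and at 13.4, 23.7 and 27.3 CPM in the p53 KO ethanol libraries, overlapping by p53 KO ethanol replicate 3 (log2 fold change -0.51 ± 0.39, adjusted p = 0.999). Smad2 was below every saline library after ethanol, with 57.6, 72.3 and 46.3 CPM against 38.4, 40.4 and 38.3 CPM (-0.59 ± 0.38, adjusted p = 0.999). Smad6 lay above every saline library, with 0.351, 0.293 and 0.664 CPM against 3.34, 0.711 and 1.33 CPM (1.53 ± 0.84, adjusted p = 0.999). The highest Smad6 value, from p53 KO ethanol replicate 1, rested on 2 counts. Without that shallow library the log2 fold change was 1.22 for Smad6 and -0.32 for Smad1. Non-overlap was thus seen for 1 of 8 genes with ethanol higher (3.89% of all genes) and for 1 of 8 with ethanol lower (6.87%).

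The remaining Smad genes overlapped between p53 KO saline and p53 KO ethanol. Smad3 had 8.69, 7.96 and 12.8 CPM against 8.36, 10.5 and 16.7 CPM (0.33 ± 0.40), and Smad4 had 32.8, 34.4 and 23.9 CPM against 20.1, 22 and 24.1 CPM (-0.45 ± 0.38). Smad5 had 59.6, 62.5 and 33.3 CPM against 48.5, 33.5 and 46.1 CPM (-0.29 ± 0.46). Smad7 and Smad9 lay near 0, at -0.031 ± 0.47 (6.67, 3.16 and 6.86 CPM against 5.01, 6.00 and 5.07 CPM) and 0.053 ± 0.48 (4.91, 3.28 and 4.65 CPM against 3.34, 4.66 and 4.69 CPM). With edgeR 0 of 8 passed the adjusted level of 0.30 (0% of all genes) and 0 of 8 had an unadjusted p under 0.05 (3.15% of all genes). DESeq2 also called 0 of 8 (0.0205% of all genes), while limma-voom with sample weights called 6 of 8 (50.3% of all genes).

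Under saline, no Smad gene was called between p53 KO and WT mice by edgeR on all 12 libraries. The largest separation in p was that of Smad3, at 9.55 to 15.9 CPM in WT and 7.96 to 12.8 CPM in p53 KO libraries (log2 fold change, KO over WT, -0.45 ± 0.39, adjusted p = 0.534). Smad1 (0.39 ± 0.39), Smad5 (0.41 ± 0.45), Smad7 (0.48 ± 0.47) and Smad9 (0.39 ± 0.48) were estimated higher in p53 KO mice, as was Smad2 (0.24 ± 0.38), each by little more than 1 SE or less. Smad4 (-0.039 ± 0.37) and Smad6 (-0.21 ± 0.87) were estimated slightly lower. The count called was 0 of 8 with edgeR (25.8% of all genes) and with DESeq2 (30.4%), and 3 of 8 with limma-voom (60.5%). Unadjusted p was under 0.05 for 0 of 8, against 19.6% of all genes. All 8 overlapped between these groups, while 12.9% of all genes were higher and 10% lower in p53 KO mice without overlap. The count of Smad genes called was 1 without WT saline replicate 1 (7556 of 14996 genes called) or WT saline replicate 3 (2052 of 15029). It was also 1 without both shallow libraries (8435 of 14967 genes called).

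After ethanol the Smad genes were estimated lower in p53 KO than in WT mice, with the exception of Smad6, yet none passed the adjusted test by edgeR. Smad1 was at 13.4 to 27.3 CPM in p53 KO and at 32.1 to 55.4 CPM in WT libraries, without overlap (log2 fold change -1.09 ± 0.40, edgeR unadjusted p = 0.0154, adjusted p = 0.982). Smad2, Smad3, Smad4 and Smad7 did not overlap either, with log2 fold changes of -0.65 ± 0.38, -0.65 ± 0.40, -0.54 ± 0.38 and -0.33 ± 0.47. Non-overlap with p53 KO lower was therefore seen for 5 of 8, against 8.69% of all genes, and for 3 of 8 on the authors' RPKM scale. It fell to 1 of 8 with scaling by total count alone. Smad5 (-0.29 ± 0.46), Smad6 (0.13 ± 0.83) and Smad9 (-0.52 ± 0.48) overlapped between the genotypes. Without the shallow p53 KO ethanol replicate 1, Smad6 was at -0.18 and Smad1 at -0.90. The count called was 0 of 8 with edgeR (0% of all genes) and with DESeq2 (0.0205%) and 2 of 8 with limma-voom (22.5%), and 1 of 8 had an unadjusted p under 0.05 (3.24% of all genes).

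The Genotype x Treatment interaction, the difference of the ethanol effects (p53 KO minus WT), was called for Smad1. Its estimate was -1.48 ± 0.56 on the log2 scale (edgeR, unadjusted p = 0.0181, adjusted p = 0.266), from 0.97 in WT and -0.51 in p53 KO mice. Estimates for the other Smad genes were -0.91 for Smad9, -0.89 for Smad2, -0.81 for Smad7, -0.70 for Smad5, -0.50 for Smad4, -0.20 for Smad3 and 0.34 for Smad6, and none passed the test. Thus 1 of 8 Smad genes was called, against 11.1% of all genes and 5.43% in the lower direction. No gene of the table passed 0.05 after adjustment (15.2% had an unadjusted p under 0.05). The Smad1 estimate stayed between -1.77 and -1.13 over 23 alternative fits and was called in 9. It was lost without any 1 of 9 libraries, with adjusted p from 0.334 (without WT ethanol replicate 2) to 0.507 (without p53 KO saline replicate 1), and kept without WT saline replicate 1 (-1.75, 0.0859), p53 KO saline replicate 3 (-1.53, 0.274) or p53 KO ethanol replicate 3 (-1.62, 0.256). The WT saline libraries enter the WT ethanol, the saline genotype and the interaction comparisons, so these do not bear on one another as separate evidence.

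**Figure D3:**
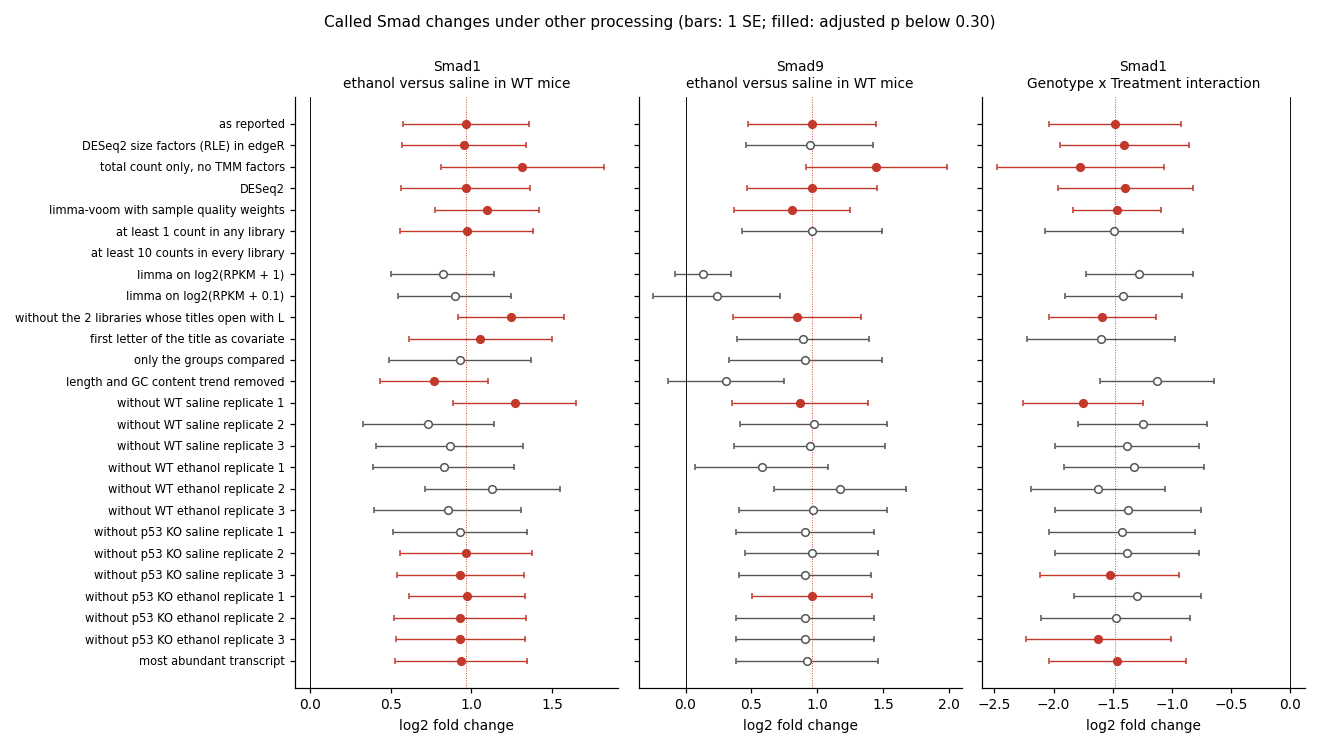
Estimates of the 3 called values (Smad1 and Smad9 for ethanol in WT mice, Smad1 for the interaction) as log2 fold changes on the x axis under each alternative fit, filled where adjusted p is under 0.30. Every estimate keeps its sign, Smad1 in WT mice between 0.73 and 1.32, while many points are not filled.

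Several sets of cell type markers and library properties differed between the groups, and their part in the Smad values was not tested. Summed neuron markers (all 8 above 0 in every library) ran from 5472 to 7263 CPM in WT saline and from 2726 to 4430 CPM in WT ethanol, with 3944 to 4356 CPM in p53 KO saline and 3390 to 6966 CPM in p53 KO ethanol. For ethanol in WT mice all 8 were estimated lower, and 1 of 8 was called lower (10.4% of all genes). On the authors' RPKM scale the sums overlapped, at 868 to 2266 in WT saline and 1678 to 2050 in WT ethanol. Markers of striatal and thalamic neurons were higher in WT ethanol (336 to 652 CPM) than in WT saline (105 to 150 CPM), p53 KO saline (74.8 to 152 CPM) and p53 KO ethanol (89.4 to 320 CPM), and 4 of 7 rose in WT mice (12.1% of all genes). WT ethanol replicate 1, which held the highest value of 5 of the 8 Smad genes, had 471 CPM of the thalamic marker Tcf7l2 and 4919 CPM of the choroid plexus marker Ttr. WT ethanol replicates 2 and 3 had 461 and 190 CPM of the striatal marker Ppp1r1b. Choroid plexus markers spanned 3.60 to 122 CPM in WT saline, 22.5 to 5010 CPM in WT ethanol, 27.2 to 2258 CPM in p53 KO saline and 0 to 2212 CPM in p53 KO ethanol. Erythroid markers were at 337 to 1319 CPM in WT saline, 50.2 to 145 CPM in WT ethanol, 35.9 to 99.3 CPM in p53 KO saline and 29.1 to 766 CPM in p53 KO ethanol, and 5 of 5 fell in WT ethanol and in p53 KO saline mice (10.4% and 13.4% of all genes). Of microglial markers 3 of 7 fell in each of these comparisons, their sum being 71.0 to 343 CPM in WT saline, 102 to 200 CPM in WT ethanol and 96.9 to 197 CPM in p53 KO saline. Of endothelial and mural markers 2 of 8 were called higher in each (12.1% and 12.4% of all genes), with sums of 192 to 293 CPM in WT saline, 200 to 371 CPM in WT ethanol and 205 to 296 CPM in p53 KO saline. Astrocyte sums overlapped, at 1133 to 2541 CPM in WT saline and 1713 to 3026 CPM in WT ethanol. Oligodendrocyte sums did too (155 to 606 and 321 to 607 CPM). For ethanol in WT mice 0 of 7 astrocyte and 0 of 8 oligodendrocyte markers were called (22.5% of all genes). Under saline 1 of 7 was lower and 1 of 8 higher in p53 KO mice (13.4% and 12.4% of all genes). In whole tissue, fewer cells of a type and less RNA per cell cannot be told apart.

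Recovery of long transcripts differed between libraries as well. Averaged over transcripts by their counts, all 8 Smad genes are longer than the median of the tested genes (2965 bases), although single Smad2 transcripts of 2410 and 1645 bases are shorter. The median log2 level of genes above 3964 bases minus that of genes below 2341 bases, relative to the mean library, was -0.091, -1.11 and -0.69 in the WT saline libraries and 0.71, 0.21 and 0.091 in the WT ethanol libraries. It was 0.61, 0.60 and 0.26 in p53 KO saline and -0.89, 0.19 and 0.28 in p53 KO ethanol libraries. This difference of long and short genes was thus lowest in WT saline replicate 2. The measure was higher in WT ethanol than in WT saline, a comparison with all 8 Smad estimates above 0. It was also higher in p53 KO saline than in WT saline, with 5 of 8 above 0, 3 below and 0 called by edgeR. Its part in the Smad values was not tested. With the length and GC trend removed, the WT ethanol estimate of Smad1 was 0.77 (edgeR adjusted p = 0.281) and its interaction was -1.13 (adjusted p = 0.513).

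Smad2 is the member whose transcripts were divided most differently between libraries. The files list 3 RefSeq transcripts of it, and the shortest, NM_001311070, took 84.7, 67.0 and 36.6% of its counts in WT saline and 27.3, 7.61 and 32.4% in WT ethanol libraries. In p53 KO mice it took 49.1, 40.3 and 23.0% under saline and 84.7, 24.9 and 22.3% after ethanol. Both values of 84.7% came from the shallow libraries, which had 50 and 23 Smad2 counts. The other transcripts also took equal shares in these libraries (9.96% for NM_010754 and 5.37% for NM_001252481). An identical division on different counts cannot be read as measured transcript use. In a fit of 21715 transcripts, NM_001311070 was at a log2 fold change of -1.04 ± 0.65 for ethanol in WT mice, while NM_010754 was at 1.14 ± 0.69 and NM_001252481 at 0.92 ± 0.66, and none of them passed the test (adjusted p = 0.401, 0.387 and 0.467). Summing the 3 transcripts gave the value of 0.31 above. Smad5 also has 3 transcripts, of which NM_008541 took 51.4 to 54.8% and NM_001164042 40.4 to 44.4% of its counts. The remaining NM_001164041 took 5.59% in p53 KO saline replicate 1, 5.24% in p53 KO ethanol replicate 3 and 2.74 to 2.87% in the other 10 libraries. Its median was 2.87% in every group, and such repeated shares cannot be read as measured transcript use either. The other Smad genes have 1 transcript each in the files.

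**Figure D4:**
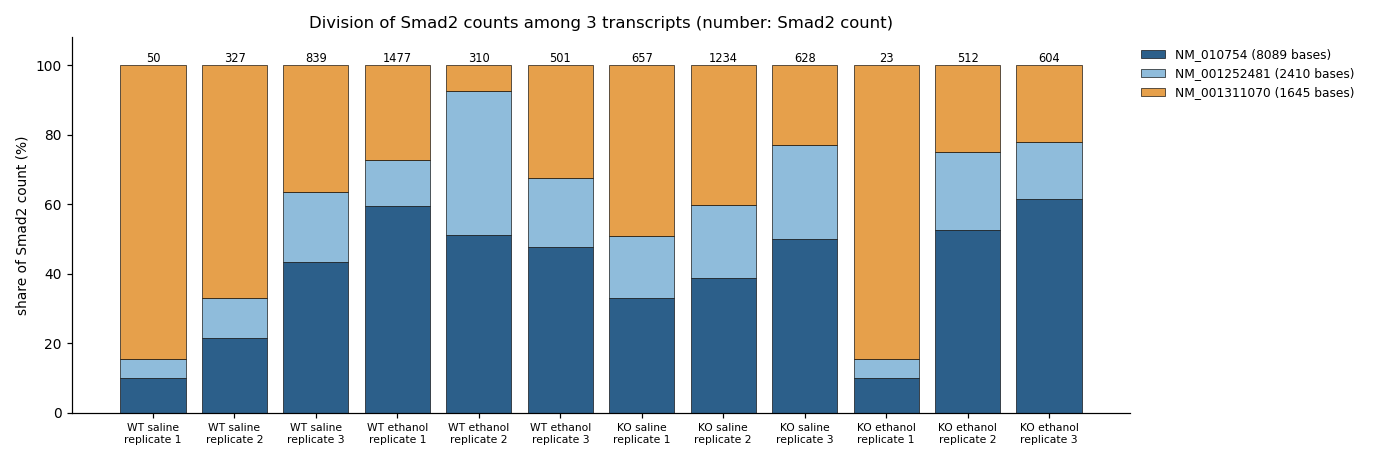
Share of the Smad2 count (y axis, percent) that the authors' quantification assigned to each of 3 RefSeq transcripts, as stacked bars for the 12 libraries. The share of NM_001311070 is 84.7% in WT saline replicate 1 and in p53 KO ethanol replicate 1 and lowest, at 7.61%, in WT ethanol replicate 2.

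Around the Smad genes, the ligands of the family moved in both directions after ethanol in WT mice. Of 29 listed ligands 22 were tested, 3 rose and 3 fell (12.1% and 10.4% of all genes), and their median log2 fold change was -0.0091. Gdf11, a growth and differentiation factor of the activin-like group, rose from 0, 1.10 and 0.520 CPM to 9.17, 1.23 and 4.08 CPM (log2 fold change 2.96 ± 0.90, adjusted p = 0.189), its call being lost without WT ethanol replicate 1 (2.07, adjusted p = 0.519) or WT saline replicate 2 (3.53, adjusted p = 0.327). Tgfb2 (1.63 ± 0.60, adjusted p = 0.215) and Inhba, which encodes the activin A subunit (1.82 ± 0.90, adjusted p = 0.292), rose as well. Lefty2, which encodes an antagonist of Nodal, fell from 25.7, 44.6 and 36.4 CPM to 8.44, 18.8 and 10.6 CPM without overlap (-1.51 ± 0.40, adjusted p = 0.154). That call was lost without WT saline replicate 2 (-1.34, adjusted p = 0.344) or WT ethanol replicate 1 (-1.30, adjusted p = 0.480). Lefty1 (-1.56 ± 0.76, adjusted p = 0.287) and Gdf9 (-1.71 ± 0.72, adjusted p = 0.239) fell too. By mean RPKM the ligands were led by Inha (16.8), Gdf1 (9.00) and Lefty2 (6.97).

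Of the 14 receptors, all tested, 1 rose in WT mice after ethanol (12.1% of all genes), and the median was 0.22. Acvr2b, which encodes a type II activin receptor, had 3.60, 3.12 and 3.12 CPM under saline and 29.4, 13.3 and 13.2 CPM after ethanol, a log2 fold change of 2.53 ± 0.47 (adjusted p = 0.0654). It was called in 20 of 23 alternative fits, including each that left out 1 library. The receptors with the highest mean RPKM, Acvr1b (17.3), Bmpr2 (16.5) and Acvr1 (14.1), did not pass the test in this comparison. Of 18 extracellular inhibitors and carriers 17 were tested, 2 rose (12.1% of all genes) and none fell, with a median of 0.35. Among those that rose was Fstl3, an activin-binding protein, at 1.85 ± 0.84 (adjusted p = 0.261). Highest in mean RPKM here were Dcn (14.6), Fstl1 (14.2) and Nbl1 (11.6).

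Among 24 cytoplasmic and nuclear regulators of Smads, 3 rose in WT mice after ethanol (12.1% of all genes) and none fell, with a median of 0.17. Crebbp, the acetyltransferase that acts as a coactivator for Smads, had 7.71, 5.14 and 4.01 CPM under saline and 38.8, 19.8 and 14.9 CPM after ethanol (2.18 ± 0.47, adjusted p = 0.0967). Its call was lost without WT ethanol replicate 1 (1.67, adjusted p = 0.321). Usp15, a deubiquitinase of the receptor complex and receptor-regulated Smads, rose from 60.7, 54.9 and 37.7 CPM to 84.9, 120 and 116 CPM (1.07 ± 0.36, adjusted p = 0.204), and was at 0.34 (adjusted p = 0.619) with the length and GC trend removed. Without WT saline replicate 2 or 3 or WT ethanol replicate 1 or 2 it was not called (adjusted p = 0.367, 0.307, 0.461 and 0.333). Zfyve16, a FYVE domain protein that binds Smads at endosomes, was at 1.17 ± 0.46 (adjusted p = 0.220). The most abundant regulators by mean RPKM were Stub1 (77.7), Strap (71.2) and Ppm1a (49.7).

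Target genes of the pathway showed 1 call, upward, among 19 tested of 20 in WT mice after ethanol (12.1% of all genes were higher), with a median of 0.21. It was Id4, a helix-loop-helix inhibitor of differentiation, at 8.23, 19.5 and 22.4 CPM under saline and 172, 33.6 and 25.6 CPM after ethanol (2.18 ± 0.72, adjusted p = 0.203). WT ethanol replicate 1 stood far above the other libraries, and without it Id4 was at 0.78 and no longer called (adjusted p = 0.626). The call was also lost without WT saline replicate 2 (2.22, adjusted p = 0.379). The most abundant targets, Tsc22d1 (mean RPKM 247), Id2 (221) and Id3 (51.7), did not pass the test there.

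In p53 KO mice none of the 5 lists held a gene past the adjusted level, by edgeR. The smallest unadjusted p-values were those of Ltbp2, a latent TGF-beta binding protein (2.61, edgeR unadjusted p = 0.00876, on at most 41 counts a library), Acvr2a, another type II activin receptor (-1.15, 0.0241), the Smad4 ubiquitin ligase Trim33 (-0.93, 0.0269) and the BMP target Id1 (1.23, 0.0352). After ethanol, p53 KO against WT mice likewise gave no call, and among the smallest unadjusted p-values were those of the type I BMP receptor gene Bmpr1a (-1.20, 0.0261), Id4 (-1.68, 0.0328) and Gdf11 (-1.94, 0.0365). Adjusted p for each of these genes was 0.98 or more.

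Under saline, p53 KO mice differed from WT mice in several pathway genes. Crebbp (2.02 ± 0.46, adjusted p = 0.147), Usp15 (1.47 ± 0.36, 0.160) and Zfyve16 (1.54 ± 0.46, 0.176) were higher among the regulators, and Stub1, a chaperone-linked ubiquitin ligase (-0.90 ± 0.41, 0.242), and Strap (-0.87 ± 0.45, 0.292) were lower. Acvr2b (1.79 ± 0.46, 0.160) and Acvr1b, a type I activin receptor gene (1.26 ± 0.59, 0.256), were the receptors called. Ligands called were Gdf11 (2.42 ± 0.89, 0.185) and Inhba (2.30 ± 0.88, 0.193), which were higher, and Lefty2 (-1.39 ± 0.39, 0.176), Bmp2 (-1.42 ± 0.55, 0.198) and Bmp7 (-1.17 ± 0.61, 0.299), which were lower. The matrix proteoglycan gene Dcn (-3.31 ± 1.29, 0.200) fell and Fstl3 (1.64 ± 0.83, 0.283) rose, and the target genes Tsc22d1 (-0.74 ± 0.36, 0.263), Id1 (-1.02 ± 0.51, 0.283) and Col1a2 (-2.29 ± 0.92, 0.205) fell. Dcn and Col1a2 are also markers of meningeal fibroblasts, whose summed level was 11.3 to 839 CPM in WT saline and 23.0 to 84.2 CPM in p53 KO saline libraries. These calls depended on single libraries. In all, 37 genes of the whole table were called without WT saline replicate 2 and 9 without p53 KO saline replicate 1 or without replicate 2. Crebbp, Usp15, Stub1, Strap, Acvr2b, Acvr1b, Gdf11, Lefty2, Dcn, Tsc22d1 and Id1 were not called in any of these 3 fits, and the values of the other genes named here are not given for them. Without WT saline replicate 2, Dcn was at -1.12 (adjusted p = 0.689), Id1 at -0.38 (0.769), Strap at -0.54 (0.644), Tsc22d1 at -0.54 (0.557) and Acvr1b at 0.89 (0.560). Acvr1b was at 2.20 without WT saline replicate 3. Of 12 fits that left out 1 library, Acvr1b was called in 7, Id1 in 4, Tsc22d1 in 3 and Strap in 3. Counts called (higher, then lower) were 2 and 3 of 22 ligands, 2 and 0 of 14 receptors, 1 and 1 of 17 extracellular proteins, 3 and 2 of 24 regulators and 0 and 3 of 19 targets, against 12.4% of all genes higher and 13.4% lower. The medians were -0.022, -0.27, 0.033, 0.13 and -0.62, with 0.041 over all genes.

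For the interaction, 8 genes of these lists were called, 6 lower and 2 higher (5.43% and 5.64% of all genes). Among them, the ligand Gdf11 (-4.36 ± 1.23), the receptors Acvr2b (-2.38 ± 0.63) and Acvr2a (-1.53 ± 0.64) and the regulators Crebbp (-2.29 ± 0.63) and Usp15 (-1.87 ± 0.51) were lower, meaning that ethanol moved them less or down in p53 KO mice relative to WT mice. Lefty2 (1.98 ± 0.56) and Stub1 (1.60 ± 0.58) were higher. The adjusted p was 0.250 for Gdf11, Acvr2b, Crebbp, Usp15 and Lefty2, 0.259 for Stub1 and 0.295 for Acvr2a. None of the 19 target genes was called.

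**Figure D5:**
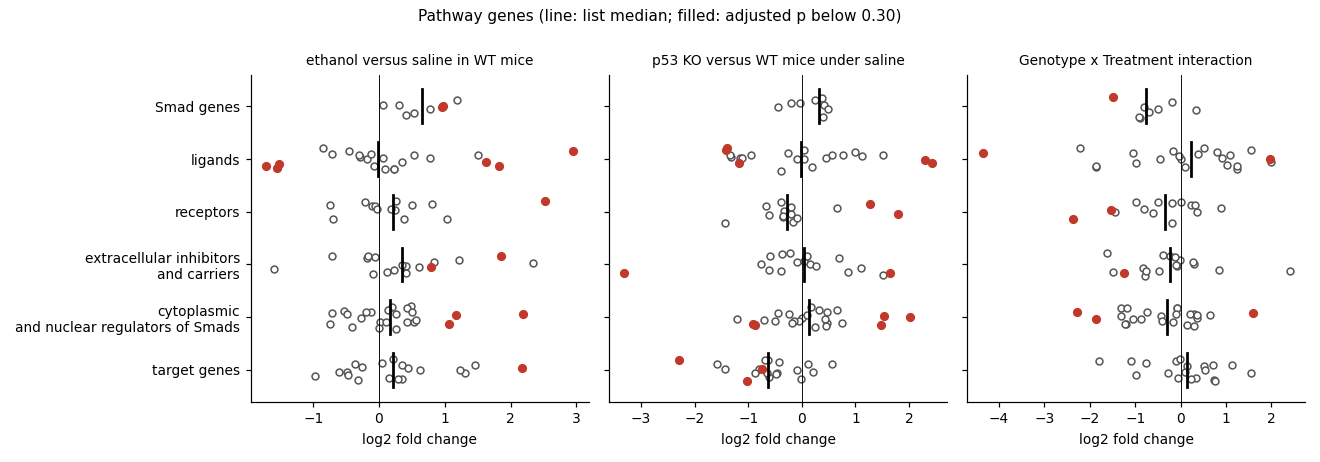
Log2 fold changes (x axes) of the Smad genes and of the tested members of the 5 pathway lists for ethanol versus saline in WT mice, p53 KO versus WT mice under saline and the interaction, 1 point per gene, filled where adjusted p is under 0.30, with a line at each list's median. In WT mice the filled points of the ligands lie on both sides of 0, and the median of the 8 Smad genes is 0.65.

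The Smad genes varied together in part over the 12 libraries, as a description, since the points share depth, normalization and group. On log2 CPM with a prior count of 1, Pearson's r was highest between Smad2 and its partner Smad4 (0.93), followed by Smad2 and Smad5 (0.74). The BMP-branch pair Smad1 and Smad9 was at 0.64, and Smad4 and Smad6 at -0.28 were lowest. Among all tested genes the closest in pattern were Rsph4a (0.94) and Mapk1ip1l (0.94) to Smad1, Tmpo (0.94) and Smad4 (0.93) to Smad2, and Ciart (0.96) and 6820408C15Rik (0.93) to Smad3. Arfip1 (0.96) and Tmem123 (0.95) were closest to Smad4, Rnf180 (0.91) and Stk24 (0.90) to Smad5, and Tcf7 (0.93) and Prr5 (0.89) to Smad6. Ankrd35 (0.82) and Gm12992 (0.81) were closest to Smad7, and Syt17 (0.93) and Hap1 (0.92) to Smad9.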

How the data were processed

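RNA-Seq libraries from somatosensory cortex of 12 mice were analysed, 3 per group, with groups taken from the GEO labels. The authors aligned quality-filtered reads to mm10 by Bowtie2 run inside TopHat. Quantification against RefSeq was done with Partek Flow (version not given in the sources used here). The deposited estimated counts are per transcript, and 45.9% of the values above 0 were whole numbers. The authors' deposited RPKM values are quantile-normalized, since the ranked values were equal within 0.1% between libraries for 99.7% of ranks. That scaling sets every library to 1 distribution. The brains were sampled by laser microdissection or by hole punch, and the labels do not tie either method to a library. No label says whether mice shared a litter, so p-values measure the spread between these libraries.

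Counts were summed per symbol, rounded, filtered with filterByExpr and scaled by TMM (factors 0.564 to 1.23). CPM in the text uses these factors. A model with 1 mean per group over all 12 libraries was fitted with edgeR 4.0.16 (quasi-likelihood, two-sided, R 4.3.3), with Benjamini-Hochberg adjustment over 14739 symbols. Calls used the study's level of 0.30. Data were simulated for ethanol versus saline in WT mice, with 200 of 14739 genes changed. The fit recovered 67.5% of 4-fold changes (49 false calls) and 0% of 2-fold changes. The data had 3310 genes called in this comparison, far more than the 200 simulated. Adjusted p depends on that number, so these recovery rates do not carry over to the data. Alternatives used DESeq2 1.42.0, limma 3.58.1 (voom with sample weights, and log2(RPKM + 1) or log2(RPKM + 0.1)), other scalings and filters, a spline of 5 degrees of freedom in length and GC content as offset (lengths found for 98.9% of tested symbols), single transcripts, and left-out libraries. Correlations, exact permutation tests and figures used Python 3.11.15, scipy 1.17.1 and matplotlib 3.10.9. Named genes were all 8 Smad genes, Trp53, in each pathway list the 3 genes highest in mean RPKM, in each comparison up to 4 pathway genes with the smallest unadjusted p under 0.05, and 2 pattern neighbours per Smad gene. Further pathway genes were named after their values were seen where the adjusted p was under 0.30. The values of 1 pathway gene, which the counts include, are not reported here. The members and lists were chosen with earlier results of these data known. Interval estimates from counts cover counting error and the spread between libraries, and reads without molecular identifiers are not independent molecules. The ends of features in the files lie 1 base past the last base and were set back by 1.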

Additional observations from a re-analysis of the deposited data

Results flagged for a closer look

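The Genotype x Treatment term of the edgeR fit was called at an adjusted p under 0.30 for Smad1 and several pathway genes. That is 1 of 8 Smad genes, against 11.1% of all genes. Pathway calls (higher, then lower) were 1 and 1 of 22 ligands and 0 and 2 of 14 receptors. They were 0 and 1 of 17 extracellular proteins, 1 and 2 of 24 regulators and 0 of 19 targets. Of all genes 5.64% were called higher and 5.43% lower. For Smad1 the difference in log2 fold change (p53 KO minus WT) was -1.48. Among type II activin receptors it was -1.53 for Acvr2a and -2.38 for Acvr2b. It was -4.36 for the ligand Gdf11 (0 to 162 counts a library), -2.29 for Crebbp and -1.87 for Usp15. The 2 positive differences were 1.98 for Lefty2 and 1.60 for Stub1. None of these values was called with the initial letter of the library title as a covariate, where 0 genes of the table passed by edgeR (1535 at an unadjusted p under 0.05), nor without WT ethanol replicate 1, p53 KO saline replicate 1 or p53 KO saline replicate 2 (0 genes each, with 1597, 1473 and 1519 at an unadjusted p under 0.05). With the length and GC trend removed, Acvr2a moved to -0.099 (adjusted p = 0.967), Usp15 to -0.25 (adjusted p = 0.909), Crebbp to -1.04 (adjusted p = 0.508) and Smad1 to -1.13 (adjusted p = 0.513). Summed markers of other cell types moved between the same libraries, as given above, and their part in these differences was not tested.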

How the results depend on the processing

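Values below are log2 fold changes or counts of genes called at an adjusted p under 0.30. By edgeR with TMM the counts over all genes were 3310 (ethanol in WT), 0 (ethanol in p53 KO), 3799 (genotype under saline), 0 (genotype after ethanol) and 1632 (interaction), and over the 8 Smad genes 2, 0, 0, 0 and 1. Over all alternatives, 828 of the Smad fold changes kept their sign and side of the threshold, 41 lost a call, 28 gained one and 66, none of them called as reported, changed sign, and the cause was not tested.

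With DESeq2's size factors in edgeR, 1 Smad gene was called for ethanol in WT mice, where 3324 of 14739 genes were. Smad7 was at 0.025 for ethanol in p53 KO mice. Scaling by total count alone moved the median of all genes to 0.49 for ethanol in WT mice, 0.49 for genotype under saline and -0.52 for the interaction. It called 4051, 4051 and 2006 of 14739 genes in those comparisons, and 5, 2 and 2 Smad genes. Smad4 was at 0.50 and Smad6 at 0.29 for genotype under saline, and Smad6 was at -0.12 for the interaction. With this scaling 1 Smad gene had every p53 KO ethanol library below WT ethanol. DESeq2 called 3 genes for ethanol in p53 KO mice, 3 for genotype after ethanol and 2650 for the interaction, with Smad7 at 0.033 for ethanol in p53 KO mice.

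Limma-voom with sample weights called 6799, 7410, 8924, 3310 and 6406 genes in the 5 comparisons in the order above. Smad genes numbered 6 for ethanol in p53 KO mice, 3 for genotype under saline, 2 for genotype after ethanol and 2 for the interaction. It placed Smad2 at -0.078, Smad4 at -0.17 and Smad5 at -0.26 for ethanol in WT mice, and Smad3 at 0.15 for the interaction. With any gene of at least 1 count kept, 1 gene was called for genotype after ethanol. For ethanol in WT mice and the interaction, 3119 and 1217 of 19364 genes were called, and 1 and 0 Smad genes. With at least 10 counts in every library, 2092 genes and 0 Smad genes were called for ethanol in WT mice, Smad1, Smad3, Smad6, Smad7 and Smad9 having been removed, and Smad4 was at 0.098 for genotype under saline.

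On log2(RPKM + 1), 356 genes were called for ethanol in WT mice, 419 for genotype under saline and 16 for the interaction, with 0 Smad genes for the first and last. Smad2 was at -0.033 for ethanol in WT mice, Smad7 at 0.085 for ethanol in p53 KO mice, Smad2 at -0.074, Smad7 at -0.016 and Smad9 at -0.063 for genotype under saline, and Smad3 at 0.11 for the interaction. On log2(RPKM + 0.1) the counts were 185 for ethanol in WT mice, 257 for genotype under saline, 1 for genotype after ethanol and 5 for the interaction, with 0 Smad genes for ethanol in WT mice and 0 for the interaction. Smad2 was at -0.026 and Smad6 at -0.073 for ethanol in WT mice, Smad7 at 0.15 for ethanol in p53 KO mice, Smad2 at -0.074, Smad7 at -0.034 and Smad9 at -0.14 for genotype under saline, and Smad3 at 0.18 for the interaction. On this scale 0 Smad genes had every WT ethanol library above WT saline, and 3 had every p53 KO ethanol library below WT ethanol.

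Without both shallow libraries, 8295 genes were called for ethanol in WT mice, 8435 for genotype under saline and 4322 for the interaction, with 4 and 1 Smad genes in the first pair. Smad2 was at -0.076 and Smad4 at -0.33 for ethanol in WT mice, Smad2 at -0.12 for genotype under saline and Smad6 at -0.18 for genotype after ethanol. With the initial letter of the title as a covariate, 3197 of 15058 genes were called for ethanol in WT mice and 0 for the interaction. Smad genes called were 1 for ethanol in WT mice and 0 for the interaction. Smad4 was at -0.11 for ethanol in WT mice, and Smad6 was at -0.045 for genotype after ethanol and -0.020 for the interaction. Fits of only the compared groups called 39 genes for ethanol in WT mice, 0 of them Smad genes, and 2531 for genotype under saline. In the fit of 21715 transcripts, 4677 were called for ethanol in WT mice and 2623 for the interaction. By the most abundant transcript per gene, 1 Smad gene was called for ethanol in WT mice.

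With the length and GC trend removed, 2354 of 14739 genes were called for ethanol in WT mice, 1731 for genotype under saline and 32 for the interaction. Smad genes called in these comparisons were 1, 1 and 0. Ethanol in WT mice gave -0.26 for Smad2, -0.042 for Smad3, -0.23 for Smad4 and -0.24 for Smad5, and ethanol in p53 KO mice 0.39 for Smad5. Genotype under saline gave -0.38 for Smad2, -0.33 for Smad5, -0.35 for Smad7, -0.30 for Smad9 and 0.039 for Id1. Genotype after ethanol gave 0.30 for Smad5 and -0.0049 for Smad6, and the interaction 0.15 for Smad2, 0.52 for Smad3, 0.63 for Smad5 and 0.041 for Smad9.

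Leaving out 1 library gave 71 (without WT ethanol replicate 1) to 7304 (without WT saline replicate 1) calls for ethanol in WT mice, 0 to 1 for ethanol in p53 KO mice, 9 (without p53 KO saline replicate 1 or 2) to 7556 (without WT saline replicate 1) for genotype under saline, 0 to 5 for genotype after ethanol, and 0 (without WT ethanol replicate 1, p53 KO saline replicate 1 or p53 KO saline replicate 2) to 5064 (without WT saline replicate 1) for the interaction. Smad genes called ranged from 0 to 3, 0 to 0, 0 to 1, 0 to 0 and 0 to 1. Signs changed for ethanol in WT mice in Smad2 (-0.051 to 0.51), Smad4 (-0.30 to 0.24) and Smad6 (-0.13 to 1.51), and for ethanol in p53 KO mice in Smad3 (-0.0014 to 0.60), Smad7 (-0.32 to 0.18) and Smad9 (-0.11 to 0.17). They changed for genotype under saline in Smad2 (-0.094 to 0.44), Smad4 (-0.38 to 0.16) and Smad6 (-0.67 to 0.061), for genotype after ethanol in Smad5 (-0.41 to 0.057) and Smad6 (-0.19 to 1.41), and for the interaction in Smad3 (-0.49 to 0.11).

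No paired analysis was possible because the labels number no replicates, and the numbers used here follow the order of the sample records and pair nothing. Depth limits the rarer members most, Smad6 having 1 count in WT saline replicate 1 and Smad9 having 2 in p53 KO ethanol replicate 1.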
